A study of Mus musculus with 17 samples.

Results

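Long-term haematopoietic stem cells (LT-HSCs) of CD41-knockout mice were compared at 12 months and 2 months of age. The comparison used 5 of the 17 arrays in the series, chosen by their titles: 3 arrays of CD41-KO LT-HSCs at 12 months and 2 arrays at 2 months. The cells were sorted from bone marrow as Lin-Sca1+cKit+CD48-CD150+, and each sample held the RNA of 1000 cells from a pool of mice, amplified as a whole transcriptome before hybridisation. All 5 samples carried the knockout, so the contrast is of age within that genotype. The 6 arrays of wild-type LT-HSCs, 3 at 2 months and 3 at 12 months under the same gate, served as the comparison for the age effect. Strain and the deleted part of the gene are not given in the sources used here, and no label says that samples of a group came from separate pools. The p-values therefore measure the spread between these arrays, which may be technical.

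CD41 is integrin alpha IIb, the product of Itga2b, which pairs with integrin beta 3, the product of Itgb3, to make the receptor that binds fibrinogen on platelets. Besides megakaryocytes it marks the earliest blood cells of the embryo and a share of adult stem cells with a bias toward the megakaryocyte lineage. LT-HSCs are mostly quiescent cells that maintain all blood lineages. With age they grow in number, lose regenerative capacity per cell and shift toward myeloid and platelet output, and genes such as Selp, Clu, Vwf, Nupr1 and Aldh1a1 are known to rise in them.

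Levels are given as log2 of the array signal relative to the array's own 75th percentile, so 0 is the level of that percentile, and a difference of 1 is a doubling. Between 84% and 93.3% of gene spots on the CD41-KO arrays were well above background, and replicates of a group correlated across genes with r between 0.980 and 0.986, genes not being independent replicates. A gene was called when limma's moderated test over all 33589 genes gave a Benjamini-Hochberg adjusted p under 0.05. The sorted markers were present: Kit had levels of 2.30 and 2.01 at 2 months and 1.54, 1.32 and 1.42 at 12 months, a fall of 0.73 ± 0.16 (SE, adjusted p = 0.00629). Ly6a, which encodes the Sca1 antigen, lay between 0.27 and 0.50 on all 5 arrays and was not called (0.09 ± 0.12). Slamf1, which encodes CD150, was dim but well above background on every array, with -2.44 and -2.68 against -2.32, -3.05 and -2.38 (-0.02 ± 0.24, adjusted p = 0.946). Cd48, whose protein the gate excludes, had levels of -1.69 and -1.57 against -1.28, -0.86 and -1.17, and its difference of 0.53 ± 0.22 was not called (adjusted p = 0.091), although it was with the slide as a block (adjusted p = 0.00335). In such sorted bulk samples, fewer cells of a type and less RNA per cell cannot be told apart.

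Between 2 and 12 months 11713 genes were called, 34.9% of those tested: 5305 higher at 12 months (15.8%) and 6408 lower (19.1%). Among the gene lists described here, most tested members of the cell cycle, oxidative phosphorylation, chromatin and protein folding lists fell, and most members of the list known to rise in aged stem cells rose. The counts of every list below are to be read beside the 15.8% and 19.1% of all genes. The arrays of the 2 ages did not overlap for 11707 of the called genes and for 19451 of all tested genes (57.9%). Ages that lie apart in a called gene named below therefore add nothing to its call. The median of all genes was 0.14, and with the array's median as the reference in place of the 75th percentile the split became 3559 higher and 6619 lower. With the replicate number, which is also the slide, as a block, 20814 genes (62%) were called, 11702 higher (34.8%) and 9112 lower (27.1%). The 2-month replicate 1 carried much of the count: without it 5341 genes were called, 2693 higher and 2648 lower, and without 2-month replicate 2 there were 8799, 3339 higher.

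Receptor genes that LT-HSCs are not known to use served as a reference for dim rises. Of 1291 tested olfactory, vomeronasal and taste receptor genes, 456 (35.3%) were called higher at 12 months and 3 (0.232%) lower, with a median difference of 0.40. Their median level was -1.81 and -1.80 on the 2-month arrays and -1.28, -1.39 and -1.33 on the 12-month arrays, so the ages did not overlap. By level, the median difference of all genes was 0.19, 0.20, 0.16, 0.11 and 0.07 in 5 bins of equal size from the dimmest to the brightest genes. In these bins 14.9%, 17.4%, 17.7%, 16.3% and 12.7% of genes were called higher. The receptors thus rose more often than genes of any level bin, and do not stand for dim genes in general. Centred on these receptors instead, 13541 genes were called, 1294 higher and 12247 lower, and the median of all genes was -0.33. Counts of dim genes that rose are therefore read beside these values, and the part of this shift in them was not tested.

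The targeted gene itself gave signal in every CD41-KO sample, though below that of every wild-type LT-HSC array. Itga2b is measured by 1 probe, shown because it decides what the array can say of the knockout. It maps to the minus strand of chr11:102319453-102319661 in mm9 per the scanner files, a span of 209 bases for 60 bases of probe, and whether it lies outside the deleted part could not be looked up here.

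Itga2b probe: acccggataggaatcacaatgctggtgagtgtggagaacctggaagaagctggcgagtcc

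The Itga2b level was -2.27 and -1.44 at 2 months and -1.48, -0.63 and -0.64 at 12 months, so the ages overlapped. The difference of 0.94 ± 0.30 passed the test (adjusted p = 0.0356), but the call was lost without any of 4 arrays, with a highest adjusted p of 0.319 without 2-month replicate 1, and with another background correction, normexp on the raw signals (0.68, adjusted p = 0.0561). Those 4 arrays were 2-month replicate 1, 12-month replicates 2 and 3, and wild-type 12-month replicate 3. The normexp correction added an offset of 50 to every signal, which shrinks the differences of dim genes by construction. Wild-type levels were 1.01, 0.63 and 0.92 at 2 months and 0.58, 0.43 and 0.67 at 12 months, above every CD41-KO array. In wild-type cells the difference was -0.29, and the difference between the age effects of the genotypes was not called (1.23, adjusted p = 0.0855).

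Its partner rose. Itgb3 had levels of 1.07 and 0.88 at 2 months and 3.02, 2.60 and 3.08 at 12 months, a rise of 1.92 ± 0.17 (adjusted p = 0.000245) with the ages well apart. The rise exceeded that in wild-type cells, which was 0.88, by 1.04 (adjusted p = 0.0238 for the difference). Of the other integrin chains, Itga4, the alpha 4 chain that binds VCAM-1 and fibronectin, was at 1.16 and 0.93 against -0.09, -0.58 and -0.33, a fall of 1.38 ± 0.19 (adjusted p = 0.000889). Itga2, the collagen receptor chain, fell by 1.31 ± 0.23 (adjusted p = 0.00272), and Pxn, which encodes the adhesion scaffold paxillin, fell by 0.70 ± 0.12 (adjusted p = 0.00284). With the other background correction, Itga2 stood at -0.66. Fermt3, Ilk and Cd47 were also lower (-0.67, -0.62 and -0.52), and Itgal and Itga1 higher (0.58 and 0.44), all 5 named after their values were seen. Of 30 tested integrins and their partners, 4 were higher (13.3%), 6 lower (20%) and 20 not called, near the 15.8% and 19.1% of all genes, with a median of 0.10 that became -0.37 when centred on the receptor genes. With the block 8 were higher and 10 lower, and without 2-month replicate 1 the counts were 1 and 4. Without 12-month replicate 1, 2 or 3 the higher count was 2, 1 and 1.

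**Figure D1:**
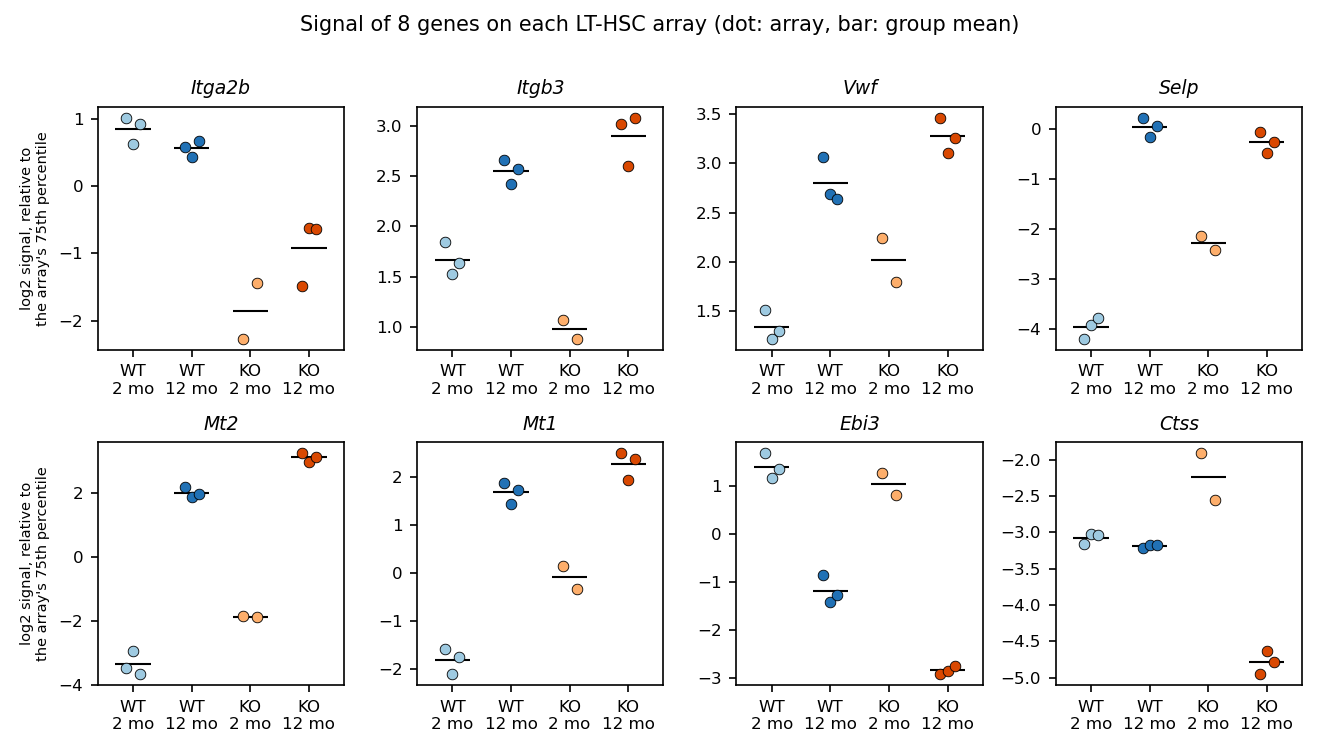
Levels of Itga2b, Itgb3, Vwf, Selp, Mt2, Mt1, Ebi3 and Ctss on each array (y axis, log2 signal relative to the array's 75th percentile), with the 4 groups of genotype and age on the x axis; points are arrays and bars are group means. Itga2b overlaps between the ages of the CD41-KO, Itgb3, Vwf, Selp, Mt2 and Mt1 sit higher at 12 months, and Ebi3 and Ctss sit lower.

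Most genes known to rise in aged stem cells rose here. Of 46 tested members of that list, 25 were higher at 12 months, 1 lower and 20 not called, with a median difference of 0.74 against 0.14 over all genes; without 2-month replicate 1, 22 were higher, and centred on the receptor genes 19 were higher and 7 lower. The list's median level per array was -0.38 and -0.58 at 2 months and 0.46, 0.26 and 0.35 at 12 months. The strongest member, and the largest rise among all named genes, was Mt2, a metallothionein that binds zinc and other metals: -1.87 and -1.89 against 3.24, 2.97 and 3.13, a rise of 4.99 ± 0.21 (adjusted p = 9.01e-06). Nupr1, a stress-induced chromatin protein, was at 1.83 and 1.78 against 4.06, 4.00 and 4.01, a rise of 2.22 ± 0.11 (adjusted p = 2.79e-05). Aldh1a1, a retinaldehyde dehydrogenase, was at 0.43 and 0.39 against 2.57, 2.25 and 2.42, and rose by 2.00 ± 0.14 (adjusted p = 0.000158). The replicates of these genes lay much closer to each other than to any array of the other age. Clu, the extracellular chaperone clusterin, rose by 1.64 ± 0.14 (adjusted p = 0.00023) from 1.00 and 0.77 to 2.55, 2.44 and 2.56. Vwf, von Willebrand factor, which marks the platelet-biased stem cells, was at 2.24 and 1.80 against 3.46, 3.11 and 3.26 (1.26 ± 0.19, adjusted p = 0.00142). Selp, the adhesion receptor P-selectin, was at -2.13 and -2.41 against -0.06, -0.47 and -0.25 (2.01 ± 0.19, adjusted p = 0.000256).

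The second metallothionein, Mt1, had levels of 0.16 and -0.33 at 2 months and 2.50, 1.94 and 2.38 at 12 months, a rise of 2.36 ± 0.24 (adjusted p = 0.000319). The genes are neighbours, and metallothionein transcription is classically driven by the metal-responsive factor MTF1 through short metal response elements, so both promoters are shown: 250 bases before the RefSeq start on GRCm38.p6, chr8:94172368-94172617 for Mt2 and chr8:94178839-94179088 for Mt1, both on the plus strand. Capitals mark the core of the element, TGCACNC or TGCGCNC on either strand.

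Mt2: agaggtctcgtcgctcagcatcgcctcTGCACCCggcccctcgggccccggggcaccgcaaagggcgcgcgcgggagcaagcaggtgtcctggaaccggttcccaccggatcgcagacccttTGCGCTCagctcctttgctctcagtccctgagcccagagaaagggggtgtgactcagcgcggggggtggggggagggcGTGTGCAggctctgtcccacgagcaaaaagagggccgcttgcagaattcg
Mt1: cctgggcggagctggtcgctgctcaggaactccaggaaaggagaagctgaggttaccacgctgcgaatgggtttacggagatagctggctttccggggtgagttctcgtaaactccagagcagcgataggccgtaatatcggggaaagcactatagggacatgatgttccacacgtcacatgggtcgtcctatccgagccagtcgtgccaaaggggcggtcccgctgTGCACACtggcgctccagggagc

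The Mt2 window held 3 matches and the Mt1 window 1. Elements outside these 250 bases were not searched, so the counts are not those of the whole promoters. The core was common: it occurred in 21.3% of 27025 windows of the same length and in 25.1% of the 15287 that belong to tested genes, and 6.64% of the latter held at least 2. Among genes called higher at 12 months, 17.9% of 1968 windows held a match, and among those called lower 31.5% of 4024. The match is a description of these windows and does not show binding.

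Apart from Mt2 and Mt1, the 15 largest rises were of genes with levels of -2.70 or lower on both 2-month arrays. Tdrd9, a helicase of the piRNA pathway of germ cells, was at -5.81 and -4.63 against -1.47, -1.69 and -1.42, a rise of 3.69 ± 0.69 (adjusted p = 0.00339). Hoxb8, a homeobox gene linked to the self-renewal of blood progenitors, was at -4.38 and -4.24 against -1.44, -1.96 and -1.68 (2.62 ± 0.46, adjusted p = 0.00272). Cdhr1, a cadherin of photoreceptors, rose by 2.54 ± 0.21 (adjusted p = 0.000169), Klrb1c, the NK cell receptor NK1.1, by 2.53 ± 0.27 (adjusted p = 0.000421) and Skint4, a member of a family expressed in thymus and skin, by 2.34 ± 0.23 (adjusted p = 0.000292). Ces2b, a carboxylesterase, rose by 2.32 ± 0.21 (adjusted p = 0.000243). These sizes lean on the background correction. With the other correction Tdrd9 rose by 1.72, Hoxb8 by 1.37, Cdhr1 by 1.11, Klrb1c by 1.17, Skint4 by 1.52 and Ces2b by 1.10. The offset of 50 in that correction shrinks such dim differences by construction, so these values are no independent measure of size. For 7 more of the 15 largest rises, the probe was not well above background on any 2-month array. A lower bound under the main background correction is given for them, set against the lowest signal well above background. These bounds carry no error and do not hold under the other correction. Plscr2, a phospholipid scramblase, was at least 4.32-fold higher at 12 months, Sult1c1, a sulfotransferase, at least 4.31-fold, and Togaram2 at least 3.86-fold. Gabrq was at least 2.69-fold higher, Zfp105 at least 2.55-fold, Resp18 at least 2.20-fold and Trmt9b at least 2.04-fold. Their adjusted p ran from 0.000232 to 0.00365, and with the other background correction their differences lay between 0.52 and 0.87, each below a doubling.

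The largest fall was that of Ebi3, a subunit of the cytokines IL-27 and IL-35. It was at 1.27 and 0.81 at 2 months and -2.92, -2.85 and -2.75 at 12 months, a fall of 3.88 ± 0.22 (adjusted p = 5.37e-05). Hbb-bt, an adult beta-globin gene, was at 0.90 and 0.48 against -2.29, -2.98 and -2.78 (-3.38 ± 0.27, adjusted p = 0.000158). Its near-identical neighbour Hbb-bs read -3.06 and -2.80 against -4.06, -2.80 and -4.19 and was not called (-0.76, adjusted p = 0.227, but 0.0421 with the block), so the probes of the beta-globin pair disagree and signal may be shared between them. Ctss, the lysosomal protease cathepsin S, was at -1.91 and -2.56 against -4.95, -4.64 and -4.78 (-2.55 ± 0.18, adjusted p = 0.000158). Arhgap30, a GTPase-activating protein of blood cells, fell by 2.76 ± 0.27 (adjusted p = 0.000292) and Islr, a leucine-rich repeat protein, by 3.07 ± 0.28 (adjusted p = 0.000251). With the other background correction Ebi3 fell by 3.04 and Hbb-bt by 2.71, while Ctss fell by 1.13, Islr by 1.29 and Arhgap30 by 1.80. The remaining 10 of the 15 largest falls were not well above background on any 12-month array, so bounds are given in the same way, without an error. Hnf4a, a nuclear receptor of liver and gut, was at least 5.23-fold lower, Ska1, a kinetochore protein, at least 3.52-fold, Nucb2 at least 3.00-fold, Tigd3 at least 2.78-fold, Rfx8 at least 2.63-fold and Mmp2, a gelatinase, at least 2.53-fold. With the other background correction the differences of these 10 lay between -0.54 and -1.37. For each gene just named the fall was then smaller than its bound. The bounds of Phlda2, Ccnh, Rnf43 and Sp3 were 2.22-fold, 1.64-fold, 1.60-fold and 1.25-fold, and Ccnh lost its call without any of the 5 CD41-KO arrays (adjusted p up to 0.222).

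Many genes that define long-term stem cells were lower at 12 months. Of 40 tested, 3 were higher, 18 lower and 19 not called, with a median of -0.42. With the block 6 were higher and 24 lower, and without 2-month replicate 1 the counts were 2 and 6. Socs2, a feedback inhibitor of cytokine signalling, was at -0.11 and -0.52 against -1.93, -2.43 and -2.59 (-2.00 ± 0.21, adjusted p = 0.000351). Hoxa9, a homeobox regulator of stem cell expansion, was at 1.19 and 0.91 against -0.08, -0.49 and -0.12 (-1.28 ± 0.20, adjusted p = 0.00151). Ifitm1, a membrane protein induced by interferon, fell by 1.38 ± 0.20 from 5.00 and 4.71 to 3.67, 3.17 and 3.60 (adjusted p = 0.00107). In the other direction Sult1a1, a sulfotransferase, rose by 1.63 ± 0.12 (adjusted p = 0.000158) from 0.60 and 0.57 to 2.34, 2.14 and 2.18. Procr, the protein C receptor EPCR used to purify stem cells, was at 1.54 and 1.35 against 1.84, 1.66 and 1.85 and was not called (0.34, adjusted p = 0.151), though it was with the block (adjusted p = 0.0133).

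Of 22 tested multipotent progenitor genes, 9 were lower and none higher (median -0.47), and 6 were lower without 2-month replicate 1. Cd34, a sialomucin that rises as stem cells leave the long-term state, was at 1.64 and 1.42 against -0.30, -0.52 and -0.17 (-1.86 ± 0.18, adjusted p = 0.000311). Sox4, a transcription factor of lymphoid and progenitor cells, fell by 1.23 ± 0.12 (adjusted p = 0.000303) from 1.50 and 1.25 to 0.13, 0.19 and 0.12. With the mean of the gene's probes in place of the brightest, the Sox4 call was lost, and over all settings its difference came as near 0 as -0.43. Spi1, which encodes the myeloid and lymphoid factor PU.1, fell by 1.67 ± 0.22 (adjusted p = 0.000824). Flt3, the receptor gained by multipotent progenitors, was at -1.23 and -0.79 against -0.84, 0.01 and -0.10 and was not called (0.70 ± 0.39, adjusted p = 0.193). The ages overlapped for Flt3 and, as in nearly all called genes, were apart for Cd34 and Sox4.

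Of the 24 lists plotted by gene, the cell cycle list had the lowest median. Of 47 tested genes, 33 were lower at 12 months and none higher, with a median of -0.93 and list medians per array of 0.39 and 0.26 at 2 months against -0.61, -0.74 and -0.69 at 12 months. Without 2-month replicate 1, 22 were lower, and without 12-month replicate 2, 1 was higher. E2f2, a transcription factor that switches on replication genes, was at 0.67 and 0.58 against -0.99, -1.12 and -1.15 (-1.71 ± 0.13, adjusted p = 0.000158). Mcm10, which activates the replicative helicase, was at -0.61 and -0.86 against -2.27, -2.42 and -2.55 (-1.67 ± 0.15, adjusted p = 0.000229). Pcna, the sliding clamp of DNA polymerase, was at 2.36 and 2.21 against 0.96, 0.68 and 0.88 (-1.44 ± 0.15, adjusted p = 0.000357). The ages were apart for each of these replication genes, as for nearly all called genes. Helicase subunits moved with them: Mcm2 fell by 1.61 ± 0.18 (adjusted p = 0.000499), Mcm6 by 1.35 ± 0.16 (adjusted p = 0.000615) and Mcm5 by 1.57 ± 0.20 (adjusted p = 0.000751). Mki67, the proliferation antigen, was at 2.92 and 2.58 against 1.80, 1.41 and 1.71 (-1.11 ± 0.18, adjusted p = 0.00201).

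Replication genes are classic targets of E2F factors, which bind short GC-rich elements near the start site. The promoters of Mcm6 and Mcm5 are shown because, of the cell cycle genes with a match, they had the smallest adjusted p. They cover the 250 bases before the RefSeq start on GRCm38.p6, chr1:128359706-128359955 on the minus strand for Mcm6 and chr8:75109259-75109508 on the plus strand for Mcm5. Capitals mark TTTGGCGC, TTTCGCGC, TTTCCCGC or TTTGCCGC on either strand, and adjoining matches overlap.

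Mcm6: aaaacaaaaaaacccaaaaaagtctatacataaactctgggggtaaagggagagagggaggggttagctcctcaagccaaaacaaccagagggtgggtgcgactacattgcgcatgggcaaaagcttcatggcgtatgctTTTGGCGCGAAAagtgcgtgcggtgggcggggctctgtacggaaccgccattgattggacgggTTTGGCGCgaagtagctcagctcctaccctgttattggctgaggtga
Mcm5: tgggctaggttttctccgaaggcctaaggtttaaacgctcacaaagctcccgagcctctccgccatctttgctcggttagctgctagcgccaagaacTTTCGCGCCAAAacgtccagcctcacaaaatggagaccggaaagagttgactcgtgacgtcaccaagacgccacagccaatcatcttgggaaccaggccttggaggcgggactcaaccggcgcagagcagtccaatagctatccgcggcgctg

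The Mcm6 window held 3 matches and the Mcm5 window 2. A match occurred in 1.91% of all windows and 2.53% of those of tested genes, in 8 of 39 windows of the cell cycle list (20.5%), and in 6 of the 28 cell cycle windows whose gene was called lower (21.4%). Among all genes called lower 4.45% of windows held one, and among those called higher 0.915%. A match is a string of letters and not a shown binding site.

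**Figure D2:**
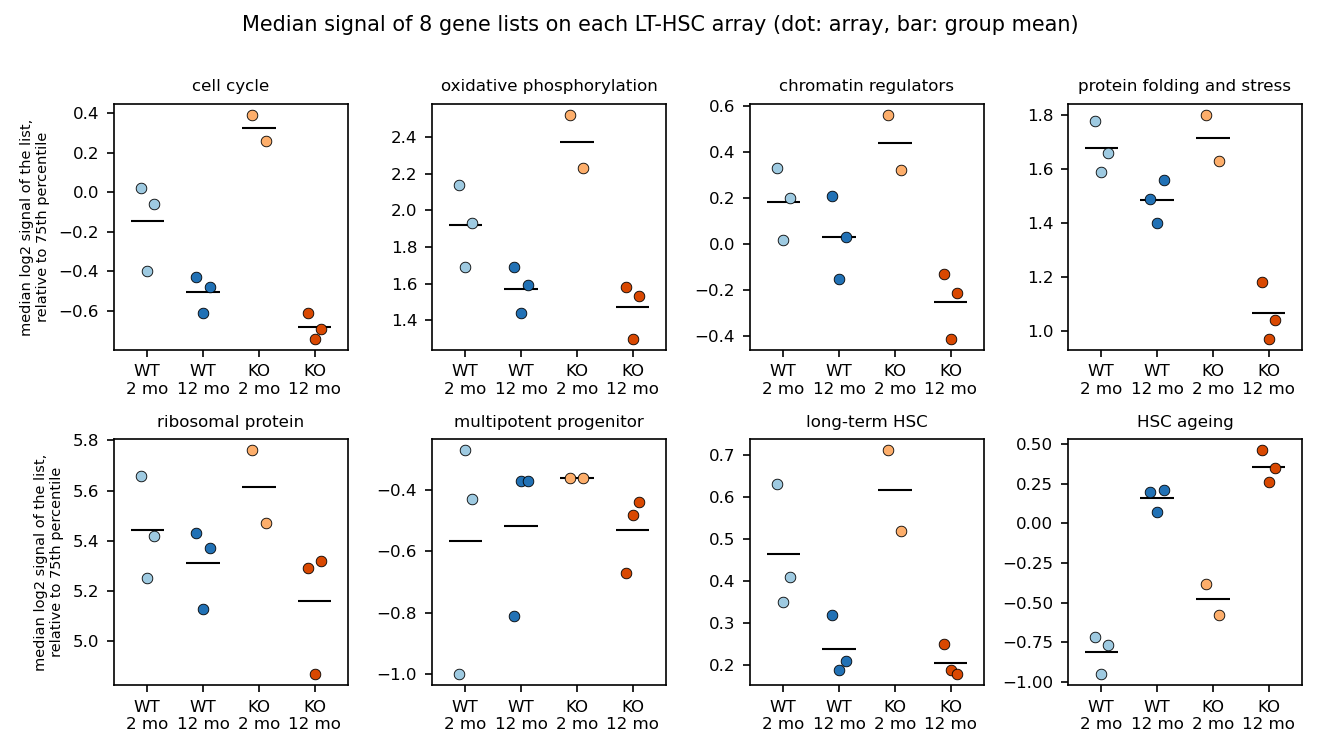
Median level of 8 gene lists on each array (y axis, log2 signal relative to the array's 75th percentile), with arrays grouped by genotype and age on the x axis. The cell cycle and oxidative phosphorylation lists sit lower on the CD41-KO arrays at 12 months than at 2 months, and the HSC ageing list sits higher.

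Most genes of mitochondrial respiration fell. Of 42 tested oxidative phosphorylation genes, 35 were lower and none higher, with a median of -0.85 and list medians of 2.52 and 2.23 at 2 months against 1.58, 1.30 and 1.53 at 12 months. Without 2-month replicate 1, 19 were lower. Cox6a1, a subunit of cytochrome c oxidase, was at 3.50 and 3.23 against 1.86, 1.66 and 1.90 (-1.56 ± 0.14, adjusted p = 0.000251). Cox5a, of the same complex, fell by 1.30 ± 0.16 (adjusted p = 0.000615), and Cox6c by 1.05 ± 0.12 (adjusted p = 0.000499). Uqcrfs1, the Rieske iron-sulfur protein of complex III, was at 1.52 and 1.41 against 0.34, -0.06 and 0.22 (-1.30 ± 0.17, adjusted p = 0.000748). The fall covered genes of several complexes, and the ages were apart for each gene named, as for nearly all called genes.

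Glycolysis and hypoxia genes showed a smaller shift: 2 of 32 were higher and 13 lower (median -0.38), 4 and 18 with the block, and 1 and 3 without 2-month replicate 1. Without 2-month replicate 2 or 12-month replicate 1 the higher count was 1, without 12-month replicate 2 it was 3, and without 12-month replicate 3 the counts were 1 and 8. Slc2a1, the glucose transporter GLUT1, was at -0.34 and -0.86 against -1.70, -2.04 and -1.91 (-1.28 ± 0.20, adjusted p = 0.00149). Pgam1, phosphoglycerate mutase, fell by 0.98 ± 0.19 (adjusted p = 0.00401), and Egln3, the oxygen sensor PHD3, by 0.92 ± 0.16 (adjusted p = 0.00263).

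Ribosomal protein genes are among the brightest on the array. Of 44 tested, 15 were lower and none higher (median -0.45), with list medians of 5.76 and 5.47 at 2 months against 5.29, 4.87 and 5.32 at 12 months. The count turned on the fit: 41 were lower with the block, 3 without 12-month replicate 2, 8 without 2-month replicate 2 and none without 2-month replicate 1. Rpl4, a protein of the large subunit, was at 5.24 and 5.22 against 4.81, 4.60 and 4.81, and its fall of 0.49 ± 0.12 (adjusted p = 0.011) was lost without 2-month replicate 1 (adjusted p = 0.0733).

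Of 40 chromatin regulators, 25 fell and none rose, with a median of -0.63 (11 lower without 2-month replicate 1). Jarid2, a cofactor of Polycomb repressive complex 2, was at 1.54 and 1.34 against 0.23, 0.11 and 0.35 (-1.21 ± 0.14, adjusted p = 0.000518). Ezh2, its methyltransferase, was at -1.94 and -1.93 against -2.96, -3.04 and -2.92 (-1.04 ± 0.14, adjusted p = 0.000813). Dnmt3b, a de novo DNA methyltransferase, fell by 1.31 ± 0.17 (adjusted p = 0.000755), and Uhrf1, which guides maintenance methylation behind the replication fork, by 1.50 ± 0.22 (adjusted p = 0.00117) from 3.89 and 3.41 to 2.35, 1.99 and 2.10. Both the Polycomb and the DNA methylation members were apart between the ages, as nearly all called genes were.

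Protein folding and stress genes were lower in 17 of 29 and higher in 1 (median -0.66), with 7 lower without 2-month replicate 1. Atf4, the transcription factor of the integrated stress response, was at 3.64 and 3.27 against 2.30, 1.81 and 2.14 (-1.37 ± 0.22, adjusted p = 0.0017). Hsf1, the heat shock regulator, fell by 1.25 ± 0.18 (adjusted p = 0.00103), and the endoplasmic reticulum chaperones Pdia6 and Canx fell by 1.10 ± 0.16 (adjusted p = 0.00122) and 1.09 ± 0.18 (adjusted p = 0.00189). Autophagy and lysosome genes were lower in 11 of 29 and higher in none (median -0.49), with 19 lower with the block and 4 without 2-month replicate 1. Atg12, a ubiquitin-like protein of autophagosome growth, fell by 1.06 ± 0.15 (adjusted p = 0.00114) to -2.03, -1.88 and -2.00 at 12 months, below both 2-month arrays. Becn1, which starts autophagosome formation, fell by 0.80 ± 0.15 (adjusted p = 0.00342), and Tfe3, a regulator of lysosomal genes, by 0.62 ± 0.12 (adjusted p = 0.00406).

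Of 30 regulators of quiescence, 3 were higher and 9 lower (median -0.22), 7 higher with the block, and none higher and 4 lower without 2-month replicate 1. None was higher without 2-month replicate 2 or 12-month replicate 1, and 1 without 12-month replicate 3. Foxo3, a forkhead factor that keeps stem cells quiescent, was at 1.99 and 1.53 against 0.46, 0.15 and 0.21 (-1.48 ± 0.20, adjusted p = 0.000835). Cdkn1b, the cell cycle inhibitor p27, was at 1.32 and 1.21 against 0.33, 0.08 and 0.20 (-1.06 ± 0.15, adjusted p = 0.00101). Tsc1, which restrains mTOR, fell by 1.03 ± 0.12 (adjusted p = 0.000619). These growth-restraining genes were lower on the same arrays on which replication genes were lower.

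Of 34 tested p53 and DNA damage genes, 3 were higher and 11 lower (median -0.22), 8 and 16 with the block and 2 and 5 without 2-month replicate 1. The stress sensors of the Gadd45 family split: Gadd45g was at -2.08 and -1.87 against -0.24, -0.23 and -0.21 (1.75 ± 0.12, adjusted p = 0.00013), and Gadd45a at -1.82 and -1.89 against -3.03, -2.88 and -3.29 (-1.22 ± 0.17, adjusted p = 0.0011). Perp, a p53 target of cell adhesion, rose by 1.91 ± 0.20 (adjusted p = 0.000419), and the replication checkpoint kinase gene Atr fell by 1.35 ± 0.19 (adjusted p = 0.000969).

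**Figure D3:**
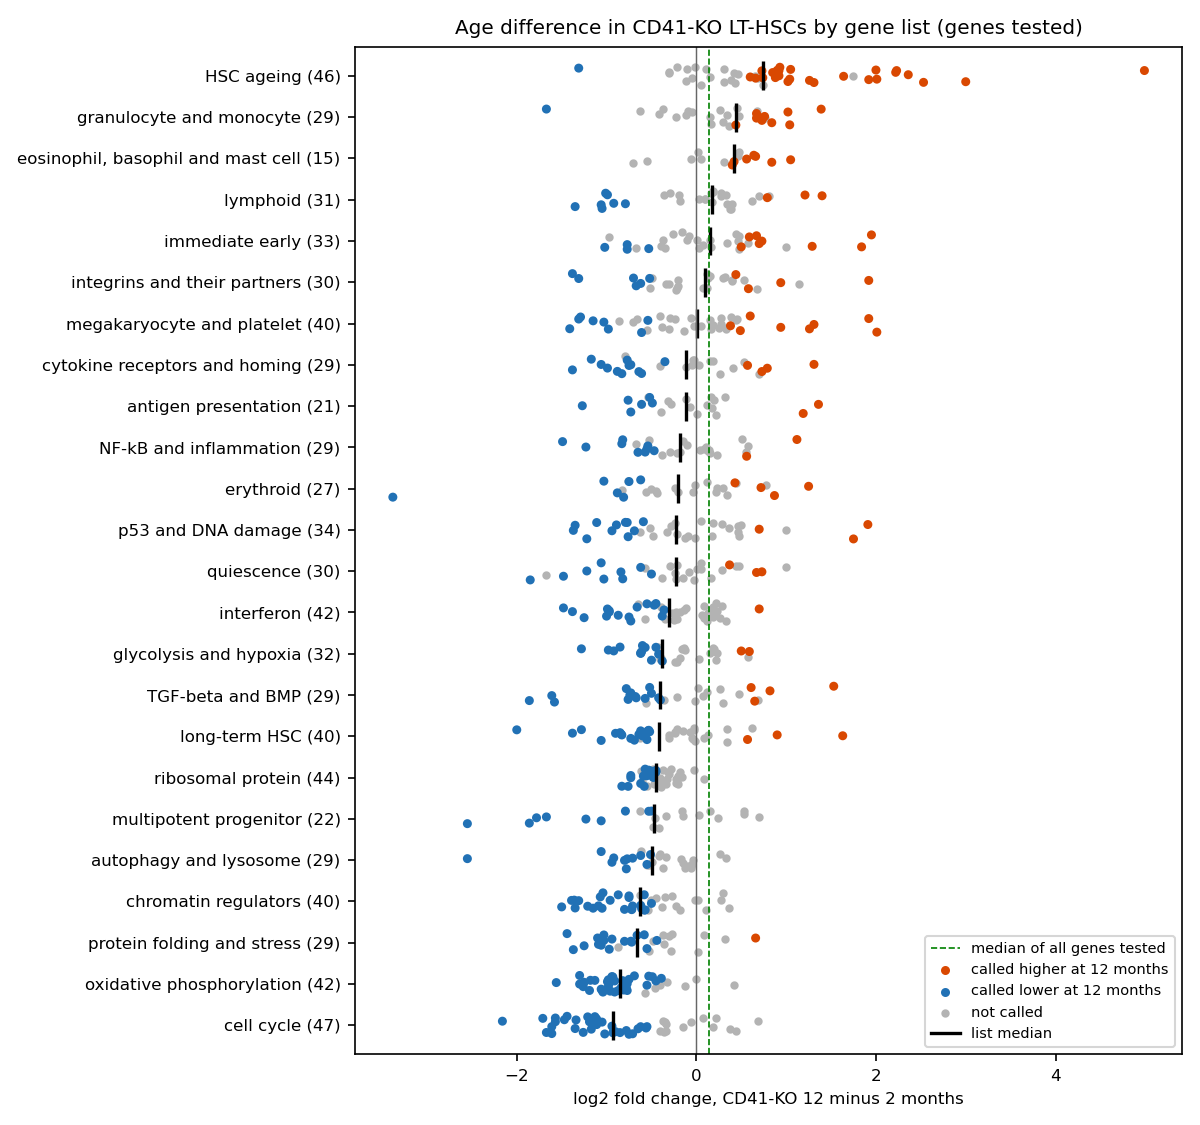
Difference between 12 and 2 months in CD41-KO LT-HSCs (x axis, log2) for every tested gene of 24 lists (y axis), with a bar at each list's median and a dashed line at the median of all genes, 0.14. The medians of the cell cycle (-0.93) and oxidative phosphorylation (-0.85) lists lie furthest to the left and that of the HSC ageing list (0.74) furthest to the right.

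Of 42 tested interferon genes, 1 was higher and 16 lower (median -0.31), with 6 lower without 2-month replicate 1 and 10 without 12-month replicate 2. Oasl2, an antiviral protein related to the oligoadenylate synthetases, was at 0.26 and -0.04 against -1.24, -1.54 and -1.33 (-1.48 ± 0.17, adjusted p = 0.000518). Stat2, the transducer of type I interferon signals, was at -1.12 and -1.30 against -2.35, -2.46 and -2.56 (-1.25 ± 0.15, adjusted p = 0.000618), and Isg20, an antiviral exonuclease, fell by 0.99 ± 0.13 (adjusted p = 0.000942). The 1 member that rose was Isg15, a ubiquitin-like protein and itself a standard interferon target, named after its value was seen, at 0.91 and 1.07 against 1.75, 1.76 and 1.55 (0.70 ± 0.12, adjusted p = 0.00248).

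Of 21 antigen presentation genes, 2 were higher and 6 lower (median -0.12), 10 lower with the block and 1 and 2 without 2-month replicate 1. Without 2-month replicate 2 there was 1 higher, and without 12-month replicate 3 there were 1 higher and 3 lower. B2m, the light chain of class I molecules, was at 3.96 and 3.77 against 2.74, 2.37 and 2.68 (-1.27 ± 0.17, adjusted p = 0.000844), and Tap1, which loads them with peptide, fell by 0.76 ± 0.11 (adjusted p = 0.00139). The class II chain H2-Aa went up, from -1.23 and -1.47 to 0.18, -0.30 and 0.14 (1.36 ± 0.19, adjusted p = 0.00105). Class I and class II members thus moved in opposite directions among the genes named.

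Of 29 tested NF-kB and inflammation genes, 2 were higher and 9 lower (median -0.18), 4 higher with the block, 1 and 3 without 2-month replicate 1, and 1 higher without 12-month replicate 1 or 3. Nfkbie, an inhibitor of NF-kB, was at -0.99 and -1.53 against -2.48, -3.08 and -2.68 (-1.49 ± 0.28, adjusted p = 0.00345). The chemokine Cxcl10 rose by 1.12 ± 0.18 (adjusted p = 0.00169), from -2.52 and -2.99 to -1.38, -1.84 and -1.68, and stood at 0.66 with the other background correction.

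Receptors for cytokines and homing molecules were lower in 12 of 29 and higher in 4 (median -0.11), with 6 and 1 without 2-month replicate 1 and 2 higher without 2-month replicate 2 or 12-month replicate 3. Selplg, the ligand of P-selectin, was at 1.00 and 0.83 against -0.23, -0.03 and -0.50 (-1.17 ± 0.17, adjusted p = 0.00122), while Selp itself rose. With the mean of the gene's probes in place of the brightest, the Selplg call was lost, and over all settings its difference came as near 0 as -0.43. Epor, the erythropoietin receptor, fell by 0.88 ± 0.13 (adjusted p = 0.00147), and Ifnar1, a type I interferon receptor chain, by 0.77 ± 0.13 (adjusted p = 0.00197). Of 29 tested TGF-beta and BMP genes, 4 were higher and 14 lower (median -0.40), and 3 and 4 without 2-month replicate 1, or 1 and 10 without 2-month replicate 2. The ligands moved apart: Tgfb1, which holds stem cells in quiescence, was at -0.33 and -0.48 against -1.19, -1.11 and -1.11 (-0.74 ± 0.11, adjusted p = 0.00131), and Bmp4 was at -1.28 and -0.48 against 0.61, 0.82 and 0.54 (1.53 ± 0.24, adjusted p = 0.00162).

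Immediate early genes, which respond within minutes to stimuli and to handling of cells, were split. Of 33 tested, 8 were higher and 4 lower, with a median of 0.15 that became -0.32 when centred on the receptor genes; 15 and 7 were called with the block, and 4 and 1 without 2-month replicate 1. Higher calls were also 4 without 2-month replicate 2, 5 without 12-month replicate 1 and 5 without 12-month replicate 3. Socs3, a feedback inhibitor of STAT3, was at -0.65 and -0.95 against 1.19, 0.84 and 1.09 (1.84 ± 0.18, adjusted p = 0.000303). Atf3, a stress-induced transcription factor, was at -2.50 and -2.95 against -0.72, -0.93 and -0.67 (1.95 ± 0.22, adjusted p = 0.000491), and Egr3 rose by 1.29 ± 0.13 (adjusted p = 0.000314). Myc, which drives growth and ribosome production, was at 0.93 and 0.59 against -0.09, -0.46 and -0.22 (-1.02 ± 0.19, adjusted p = 0.0032).

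Among lineage programmes the megakaryocyte and platelet list had no common direction: 8 of 40 were higher and 8 lower (median 0.01, or -0.46 when centred on the receptor genes), 13 and 15 with the block, and 4 and 4 without 2-month replicate 1, with 5 higher without 12-month replicate 3. Its shares of 20% higher and 20% lower lie near the 15.8% and 19.1% of all genes. Pf4, the platelet chemokine, was at 2.55 and 2.38 against 1.22, 0.94 and 1.01 (-1.41 ± 0.15, adjusted p = 0.000445). Gata1, the regulator of megakaryocytes and red cells, was at 1.31 and 1.20 against 0.24, 0.24 and 0.21 (-1.03 ± 0.12, adjusted p = 0.000618). Both were well apart between the ages, in the direction opposite to Itgb3, Vwf and Selp in the same samples. Of 27 erythroid genes, 4 were higher and 6 lower (median -0.20), 8 and 14 with the block and 1 and 4 without 2-month replicate 1, with 2 higher without 2-month replicate 2 or 12-month replicate 3. These shares, 14.8% and 22.2%, are also near those of all genes. Trim10, a protein of erythroid maturation, rose by 1.25 ± 0.14 (adjusted p = 0.000519), and Epor, Gata1 and Hbb-bt fell as given above. Klf1, the regulator of globin genes, named after its value was seen, was at -1.42 and -1.61 against -2.32, -2.14 and -2.52 (-0.81 ± 0.15, adjusted p = 0.00376).

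Of 29 granulocyte and monocyte genes, most of them dim, 10 were higher, 1 lower and 18 not called, with a median of 0.44 that became -0.03 when centred on the receptor genes (4 higher, 6 lower); 4 were lower with the block, 6 were higher without 2-month replicate 1, and 2 were lower without 12-month replicate 2. Fcnb, a ficolin of immature granulocytes, was at -1.05 and -1.20 against 0.39, 0.07 and 0.34 (1.39 ± 0.14, adjusted p = 0.000367), and Prtn3, the granule proteinase 3, at -0.93 and -1.04 against 0.07, -0.17 and 0.25 (1.04 ± 0.16, adjusted p = 0.0017). Ly86, a partner of a Toll-like receptor, rose by 0.76 ± 0.12 (adjusted p = 0.00158), and Mpo, the granule peroxidase, had overlapping ages at -3.07 and -2.12 against -2.92, -2.25 and -2.90 (-0.09 ± 0.50, adjusted p = 0.90). The list's share of higher genes, 34.5%, is close to the 35.3% of receptor genes called higher. Of 31 lymphoid genes, 3 were higher and 7 lower (median 0.17, or -0.31 when centred on the receptor genes), 10 higher with the block, and 2 and 4 without 2-month replicate 1. Ikzf1, the lymphoid regulator Ikaros, was at 1.72 and 1.46 against 0.64, 0.57 and 0.59 (-0.99 ± 0.12, adjusted p = 0.000657), Cd79b, a chain of the B cell receptor, fell by 1.01 ± 0.14 (adjusted p = 0.00105), and Ccr9, a thymus-homing receptor, rose by 1.21 ± 0.22 (adjusted p = 0.00286). Of 15 eosinophil, basophil and mast cell genes 7 were higher and none lower (median 0.42, or -0.05 with none higher when centred on the receptor genes), 1 without 2-month replicate 2, 4 without 2-month replicate 1 and 4 without 12-month replicate 1.

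Markers of other cells that a sort could hold were read beside these lists. Over all genes, 15.8% were called higher and 19.1% lower, and of the receptor genes 35.3% were called higher. Of neutrophil markers 4 of 8 tested were higher and none lower, and their summed signal, as a multiple of the 75th percentile, was 4.62 to 5.93 at 2 months and 5.85 to 7.25 at 12 months; S100a8 and Mmp9 were not well above background on all arrays of any group. Stromal markers had 4 of 6 higher and none lower, with sums of 3.11 to 3.58 and 4.54 to 5.21, while Col1a1, Pdgfra, Pdgfrb and Igfbp5 were not above background. Lepr, the leptin receptor of marrow stroma, was at -1.97 and -2.01 against -1.09, -1.15 and -0.93 (0.94 ± 0.12, adjusted p = 0.000693). T and NK cell markers had 3 higher and 1 lower of 7 (sums 7.02 to 7.36 and 6.30 to 6.98, Cd3g not above background). B cell markers had 1 and 1 of 9 (5.46 to 5.72 and 4.56 to 4.79). Macrophage markers had 1 and 1 of 9 (11.2 to 13.2 and 13.0 to 15.8, Mrc1 not above background). Endothelial markers had 1 higher, Vwf, and 1 lower, Emcn, of 7 (10.2 to 10.9 and 16.7 to 17.6, Cdh5 not above background). Red cell markers had 2 and 1 of 7 (3.94 to 4.16 and 2.42 to 3.00), and megakaryocyte markers 1 and 2 of 8 (9.18 to 10.4 and 6.40 to 6.81). The sums add signal on the linear scale, so bright members weigh most. Much of the change in the endothelial, red cell and megakaryocyte sums is that of Vwf, Hbb-bt and Pf4, in that order, whose levels are given above. Without 2-month replicate 2, 1 neutrophil marker and 1 T and NK cell marker were higher, and without 12-month replicate 3 there were 2 neutrophil and 2 stromal markers. Centred on the receptor genes, no neutrophil marker was called in either direction, and 1 stromal marker was higher and none lower. T and NK cell markers then had 1 higher and 1 lower, and endothelial markers 1 and 3. The part of such cells in the lists above was not tested.

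The age effect was set beside that in wild-type LT-HSCs, with which it shares no array, though both come from the same fit. In wild-type cells 5058 genes were called (15.1%), 2991 higher (8.91%) and 2067 lower (6.15%), with a median of 0.09. Of the genes called in the CD41-KO, 2660 were called in the same direction in wild-type cells and 254 in the opposite one, which is 22.7% and 2.17% of the CD41-KO calls and 52.6% and 5.02% of the wild-type calls. The difference between the age effects was called for 3250 genes (9.68%), 1310 higher in the CD41-KO (3.90%) and 1940 lower (5.78%). With the block the counts were 14480 in wild-type cells and 12282 for the difference. The difference dropped to 901 genes without CD41-KO 2-month replicate 1, to 1731 without either 2-month replicate 2 or 12-month replicate 3 of the CD41-KO, and to 1742, 1819 and 1691 without wild-type 2-month replicate 3, 12-month replicate 1 and 12-month replicate 3. The wild-type count lay between 2843 and 3329 without wild-type 2-month replicate 1 or 3 or any wild-type 12-month array. The wild-type ages also differ in sex-linked genes: Xist, expressed from the inactive X chromosome of females, was at -2.20, -2.46 and -2.16 at 2 months and 5.19, 4.63 and 4.84 at 12 months, while all 5 CD41-KO arrays lay between 4.27 and 5.48. For wild-type cells age and the sex of the mice therefore cannot be told apart, and this touches every difference between the genotypes given here.

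Of 46 genes of aged stem cells, 28 were higher and 1 lower in wild-type cells (median 0.69), and 22 were called higher in both genotypes, of the 25 in the CD41-KO and the 28 in wild-type cells. Between the genotypes the difference was called for 12 members, 5 higher and 7 lower in the CD41-KO. Mt2 rose by 5.38 in wild-type cells and Mt1 by 3.50, and neither difference was called (adjusted p = 0.444 and 0.0511), although with the block that of Mt1 was (-1.17, adjusted p = 0.00028). Selp rose by 4.02 in wild-type cells, 2.01 more than in the CD41-KO (adjusted p = 0.00192), while Itgb3 and Klrb1c rose more in the CD41-KO (differences of 1.04 and 1.40, adjusted p = 0.0238 and 0.0417). Zg16, Ehd3, Cavin2, Fyb, Itga6 and Ptger4 were the other members with a smaller effect in the CD41-KO, and Neo1, Pclo and Scube2 those with a larger one, named after their values were seen.

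Where the difference between genotypes was called, replication and respiration genes had the lower age effect in the CD41-KO. For the cell cycle list the wild-type counts were 1 higher and 10 lower (median -0.27), and the difference was called for 14 genes, all lower in the CD41-KO. Pcna was lower by a further 1.10 (adjusted p = 0.0109), E2f2 by 1.52 (adjusted p = 0.00108) and Mcm10 by 1.14 (adjusted p = 0.00886). For oxidative phosphorylation 5 were lower in wild-type cells (median -0.28), and the difference was called for 11 genes, all lower in the CD41-KO, among them Cox6a1 (-1.20, adjusted p = 0.00638) and Cox5a (-0.98, adjusted p = 0.0213). The list medians started higher on the CD41-KO arrays at 2 months (cell cycle 0.39 and 0.26, oxidative phosphorylation 2.52 and 2.23) than on the wild-type arrays at that age (0.02, -0.40 and -0.06, and 2.14, 1.69 and 1.93). At 12 months the genotypes shared a value for the cell cycle and overlapped for respiration, at -0.61, -0.74 and -0.69 against -0.43, -0.61 and -0.48 for the cell cycle, and at 1.58, 1.30 and 1.53 against 1.69, 1.44 and 1.59 for respiration.

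Of the megakaryocyte and platelet genes, the difference was called for 1 member higher in the CD41-KO, Itgb3, and for 10 lower, among them Pf4 (-1.18, adjusted p = 0.00974), Gata1 (-0.76, adjusted p = 0.0231), Itga2 (-1.45, adjusted p = 0.021) and Selp. Ctss, which fell in the CD41-KO, stood at -0.11 in wild-type cells (difference -2.44, adjusted p = 0.000517), and Hbb-bt at -0.16 (difference -3.22, adjusted p = 0.00106). The immediate early genes Socs3 and Atf3 rose more in the CD41-KO by 1.76 and 1.62 (adjusted p = 0.00336 and 0.0113). Myl10, a myosin light chain, was level in the CD41-KO (-0.13) and 3.80 higher at 12 months in wild-type cells (difference -3.93, adjusted p = 8.57e-06).

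**Figure D4:**
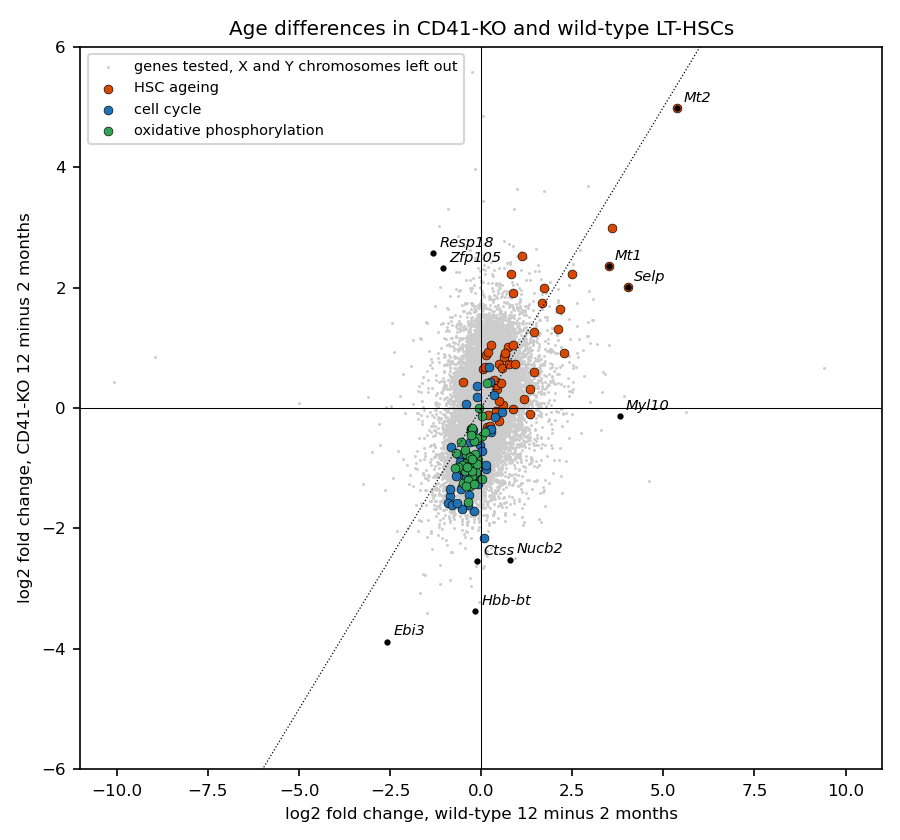
Difference between 12 and 2 months in CD41-KO LT-HSCs (y axis, log2) against that in wild-type LT-HSCs (x axis, log2) for each tested gene off the sex chromosomes, with the HSC ageing, cell cycle and oxidative phosphorylation lists in colour. Mt2 and Mt1 are high in both genotypes (4.99 and 2.36 in the CD41-KO, 5.38 and 3.50 in wild-type), while Myl10 is high in wild-type cells and Hbb-bt and Ctss are low in the CD41-KO.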

How the data were processed

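Expression was measured on 11 LT-HSC arrays, of which the 5 CD41-KO arrays are described here. Per the labels' protocols, the RNA of 1000 sorted cells went through whole transcriptome amplification, which can compress or distort ratios, before Cy3 labelling. The deposited scanner output holds, per the file headers, spot intensity from Agilent Feature Extraction 10.7.3.1, background-subtracted and detrended. The authors' deposited table of log2 values served as an alternative; the sources used here do not give its normalization.

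The processed intensity was divided by each array's 75th percentile and put on the log2 scale. Control spots and flagged outliers were left out (104 to 173 gene spots per CD41-KO array), spots of a probe were averaged, a gene took its brightest probe, and 33589 genes with a probe well above background on all arrays of a group were tested, from 59305 gene spots and 55681 probes. The accessions of 26300 probes matched the RefSeq gene table, and 29381 probes kept the file's name. limma 3.58.1 (R 4.3.3) was fitted on all 11 arrays with 1 coefficient per group and Benjamini-Hochberg adjustment. The members and lists were chosen with earlier results of these data known. Named were Itga2b, the 15 highest and 15 lowest called genes with a symbol, no receptor of the silent families, a probe well above background on all arrays of either age, and ages that do not overlap; the 4 called members of smallest p per list; a set of 11, namely Cd48, Flt3, Gata1, Itgb3, Mpo, Pf4, Procr, Selp, Slamf1, Vwf and Xist; and the 8 highest and 8 lowest called differences between the age effects off the sex chromosomes. List members outside these are given with their values, chosen after those were seen. A few genes are not reported here.

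Each replicate number is a slide of its own. Deviations of same-numbered arrays of the CD41-KO ages correlated with r of 0.58 to 0.69 (2 pairs) and those of other group pairs with 0.35 to 0.73 (13 pairs), against -0.71 to 0.22 for different numbers. Deviations from a group mean cancel within the group, so the negative values are in part built in. Same-numbered arrays thus varied together, but the labels name no block. Errors and adjusted p are from the fit without the slide unless the block is named, which leaves this pairing out. On simulated data of 33568 genes for the CD41-KO age contrast, none of 67 genes changed by 0.5 on the log2 scale was called, 23 of 67 changed by 1 (34.3%) and 54 of 66 changed by 2 (81.8%), with 6 false calls. Only these genes were changed there, and the noise was independent between arrays, with no slide effect. In the data 34.9% of genes were called, which loosens the cutoff of the adjustment. The simulated shares and false calls therefore do not carry over to the data. The number of arrays limits the precision. Motifs were searched with Python 3.11.15 in promoters of the RefSeq tables on GRCm38.p6. Alternatives were other scalings and background corrections, filters, array weights, the slide as a block and each array left out.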

Additional observations from a re-analysis of the deposited data

Results flagged for a closer look

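For 75 of the 153 named genes reported here, the change from 2 to 12 months differed between CD41-KO and wild-type cells by limma's test of that difference itself (the interaction of age and genotype, adjusted over all genes); the difference lay above 0 for 25 and below 0 for 50. Over all genes this difference was called for 9.68%, with 3.9% above 0 and 5.78% below 0. The share among named genes cannot be read against these values. Some named genes were chosen for the highest or lowest called differences in this same test. Most others were chosen for a large or strongly called CD41-KO age effect, which is part of the difference. Values below are the CD41-KO age effect minus the wild-type one, in log2. Wild-type ages also differ in Xist and Y-linked genes, so in that genotype age and sex cannot be told apart.

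Of the replication and growth genes, the difference was -1.52 for E2f2, -1.14 for Mcm10 and -1.10 for Pcna, all lower in the CD41-KO. Respiratory chain genes had differences of -1.20 for Cox6a1, -0.60 for Cox6c, -0.98 for Cox5a and -0.89 for Uqcrfs1. Genes of protein handling and autophagy had differences of -0.80 for Pdia6, -0.94 for Canx, -1.26 for Atg12, -1.12 for Becn1, -2.44 for Ctss and -0.78 for Rpl4, again all below 0.

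Stem cell, chromatin and DNA damage genes had differences of -1.08 for Hoxa9, -0.70 for Sox4, -0.86 for Jarid2, -1.17 for Gadd45a and 0.71 for Gadd45g. Of the immediate early genes, the difference was 1.76 for Socs3, 1.62 for Atf3, 0.92 for Egr3 and -0.97 for Myc.

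Of the megakaryocyte, integrin and red cell genes, the difference was 1.04 for Itgb3 and 0.87 for Trim10, and -2.01 for Selp, -1.45 for Itga2, -1.18 for Pf4, -1.05 for Gp9, -0.76 for Gata1, -0.72 for Epor and -3.22 for Hbb-bt. Immune and signalling genes had differences of -1.12 for Oasl2, -1.05 for Stat2, -0.96 for Isg20, -0.91 for B2m, -1.03 for Rel, -1.43 for Nfkbie, -1.29 for Ebi3, -0.77 for Ski, 1.72 for Cxcl10 and 1.26 for Bmp4.

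Markers of other cells had differences of 1.40 for Klrb1c, 1.15 for Ltf, 1.25 for Lepr, 1.93 for Cxcl12, 1.13 for Cpa3 and -2.84 for Prg2. The sex-linked genes Xist and Eif2s3y had differences of -7.88 and 2.05.

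Other genes with a difference above 0 were Igsf23 (3.01), Cdhr1 (2.48), S100b (2.48), Ccdc177 (2.46), Skint4 (2.15) and Ces2b (1.69), and below 0 Myl10 (-3.93) and Abcb9 (-3.44). The Abcb9 difference lost its call in 10 of 23 other settings, 9 of them with 1 array left out, and ranged from -4.10 to -0.86. In the CD41-KO alone Abcb9 was not called (-1.85, adjusted p = 0.0617), though it was with the block (adjusted p = 0.0169).

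For 18 of the 75, at least 1 of the 4 groups had no array with the probe well above background, so the fitted difference rests in part on background and is no measured size. Above 0 these were Resp18 (3.90), Zfp105 (3.38), Drc3 (2.96), Etnppl (2.62) and Sult1c1 (1.59). Below 0 they were Atg9b (-3.65), Rpl39l (-3.52), Kbtbd7 (-3.47), Zfp418 (-3.39), Nucb2 (-3.32), Tigd3 (-2.72), Ska1 (-2.67), Rnf43 (-2.63), Sp3 (-2.48), Rfx8 (-1.77), Tob1 (-1.65), Mmp2 (-1.47) and Islr (-1.39). The Resp18 difference came to as little as 0.91 in another setting, and that of Rpl39l to -0.60, with its call lost in 4 of 23. Etnppl was not called in the CD41-KO alone (0.70, adjusted p = 0.213).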

How the results depend on the processing

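Of the 146 called named genes, 109 kept their call in every setting that tested them (23 to 25 settings per gene) and 37 lost it in at least 1. Of 16 differences between genotypes rerun, 4 lost their call in some setting (Abcb9, Rpl39l, Zfp105 and Etnppl). With arrays centred on the receptor genes, Cd3d (-0.01), Adgre1 (-0.08) and Car1 (-0.04) turned negative, and Cxcl12 came to 0.00. Called genes of the CD41-KO age effect stayed within 1.5 times of 11713 under the other scalings, background corrections and filters, and 8975 were called with the CD41-KO groups alone in the fit. With the replicate number as a block, counts were 20814 (11702 higher) for the CD41-KO, 14480 for wild-type cells and 12282 for the difference. Array weights gave 10664 for wild-type cells and 6554 for the difference, centring on the array median gave 2045 for the difference, and a fit of the wild-type groups alone gave 2878. Leaving out 1 array gave 5341 to 12265 calls for the CD41-KO, 2693 to 5727 higher and 2648 to 6538 lower, 2843 to 4918 for wild-type cells and 901 to 3254 for the difference. Chosen after seeing the data, centring on the receptor genes gave 1294 higher, 12247 lower and 8121 for the difference. A 2-fold minimum, also added, left 3197 genes. The added fit with the block but without the 12-month CD41-KO array whose slide holds no partner gave 20875 (11904 higher), 14874 for wild-type cells and 12417 for the difference. The causes were not tested. Dim signal limits sizes: with normexp, 52 of the 146 changes were smaller by over 1.5 times. Its offset of 50 shrinks dim changes by construction, so this count is no independent check of their size.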

Other observations

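Some eosinophil granule genes had age effects that differed between the genotypes, and Ear6, Prg2 and Epx were chosen after their values were seen. Of 15 tested eosinophil, basophil and mast cell genes, the difference was called lower in the CD41-KO for 6 and higher for 1. Over all genes these shares were 5.78% and 3.9%. The higher one was Cpa3 (1.13, adjusted p = 0.0355). Ear1, an eosinophil ribonuclease, stood at 0.66 in the CD41-KO and 0.44 in wild-type cells (difference 0.22, adjusted p = 0.616). Ear6, an eosinophil ribonuclease, was at -5.00 and -4.47 on the 2-month and -5.20, -4.21 and -4.97 on the 12-month CD41-KO arrays, and at -6.25, -4.77 and -5.86 against -0.09, -0.03 and 0.08 on the wild-type arrays. The probe was well above background on 2 of 2 and 1 of 3 CD41-KO arrays and on 1 of 3 and 3 of 3 wild-type arrays, so the low levels lie near background; the fitted difference passed the test (adjusted p = 0.000415). Prg2, the eosinophil major basic protein, rose by 3.40 in wild-type cells and by 0.56 in the CD41-KO, where the call was lost without 1 array (adjusted p = 0.0559). Epx, eosinophil peroxidase, was 1.60 higher in wild-type cells and 0.05 in the CD41-KO (adjusted p of the difference = 0.0184). Runx1, a regulator of blood stem cells, fell by 1.06 in the CD41-KO and stood at -0.04 in wild-type cells (difference -1.02, adjusted p = 0.0372), and the Polycomb gene Bmi1 fell by 1.15 and stood at -0.09 (difference -1.05, adjusted p = 0.0468).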
